A study of Homo sapiens with 6 samples.

Results

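Glycolysis and the response to low oxygen were followed across 40 genes in an osteosarcoma cell line with and without deletion of CNTNAP4. The 40 members were taken by gene symbol from the 54308 genes listed in the deposited signals. All 40 were found, and 25 of them encode glucose transporters, glycolytic enzymes or proteins that handle lactate and pyruvate, 5 encode subunits or prolyl hydroxylases of the hypoxia-inducible factors (HIFs) and 10 are genes that HIFs are known to switch on. RNA came from 143B, a human osteosarcoma line. Vector control (VC) cells carried a negative control plasmid and CNTNAP4 knockout (KO) cells a CRISPR/Cas9 plasmid against CNTNAP4, and each group had 3 libraries that the labels call biological replicates. The labels give 48 h after transfection, whereas the methods describe colonies grown from single sorted cells, and neither says which KO clone each library came from. The methods call the RNA samples independent without naming separate cultures, so p-values measure the spread between these libraries, which may be technical. Both groups grew in the same medium under 5% CO2, and no label names an oxygen level.

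Glycolysis splits glucose into pyruvate in the cytosol, and many tumor cells turn most of that pyruvate into lactate even when oxygen is present. HIF1A and EPAS1 are the oxygen-sensitive subunits of the HIFs. With oxygen, prolyl hydroxylases of the EGLN family mark them for destruction through VHL, and without it they pair with ARNT, bind promoters at the letters ACGTG or GCGTG and raise the transcripts of glucose transporters, glycolytic enzymes and many other genes. Protein abundance and hydroxylation of the HIFs are not visible in RNA data.

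The unit was a log2 signal that had been quantile-normalized between the 6 libraries, so every library ran from -10.87 to 12.04, and its depth is unknown. Every log2 fold change is KO minus VC, and a gene was called when limma's adjusted p was under 0.05. The median log2 fold change of the 19306 genes tested was -0.13. It was -0.042 with median-centred libraries and -0.023 with 1 added to the linear signal. CNTNAP4 had a value in VC replicate 3 only (-7.18), so the deletion could not be checked here. Of 8 mesenchymal and osteoblast markers, all had values in every library, with VIM between 10.33 and 10.93 and both COL1A2 and THY1 at -4.42 or under. Among them COL1A1 and SPARC were called higher in KO (log2 fold changes 0.33 and 0.37). COL1A2 and NT5E were called lower (-0.81 and -0.66), and 4 were not called. The leukocyte marker PTPRC and the endothelial marker PECAM1 lay between -7.12 and -4.35. Summed linear signals of 4 leukocyte markers were 21.7 to 23.0 in VC and 52.3 to 88.1 in KO. CD68, a lysosomal protein, was called higher in KO (log2 fold change 1.66), while CD3E and CD14 were at -3.29 or under where they had a value. Summed signals of 4 epithelial markers were 576 to 640 in VC and 553 to 608 in KO, and those of 3 endothelial markers were at most 0.0579. Of the epithelial markers KRT8 was called higher in KO (0.59) and EPCAM lower (-0.67). KRT18, the highest of them, was not called (-0.26). The part of CD68-expressing cells in the results was not tested. In KO the spread between replicates was wider than in VC for 32 of the 39 members with 6 values and for 70.2% of all genes with 6 values.

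Members moved in both directions. They were chosen with earlier results of these data known, so shares set beside those of all genes are a description. Of the 39 members tested, 8 were called higher in KO (20.5%, where 13.1% of all genes tested were called higher) and 5 were called lower (12.8%, against 19.8% of all genes tested). Together that was 33.3% of the members against 32.9% of all genes, so the share called was near the background. Calls higher in KO were SLC2A3, HK2, PFKM, ALDOC, ENO2, PDK1, NDRG1 and BNIP3L, and calls lower in KO were PGAM1, LDHA, PDK3, EGLN1 and EGLN3. With at least a 2-fold change the calls were 4 higher (SLC2A3, ALDOC, NDRG1 and BNIP3L, against 4.1% of all genes) and 1 lower (EGLN3, against 5.43% of all genes). All 3 KO values lay above all 3 VC values in 16 members (41.0%, against 22.6% of genes with 6 values) and under them in 9 (23.1%, against 36.7%), and the groups overlapped in 14. Among all genes with 6 values, 59.3% had groups that did not overlap. The median log2 fold change of the members was 0.23, beside -0.13 for all genes tested.

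Which members were called changed when a library was left out, as did the number of calls over the whole table. Without KO replicate 1 there were 20 calls higher (against 15.9% of all genes) and 7 lower (against 31.0%). Without any 1 VC library, or without KO replicate 3, no member was called higher by limma, although 8 or 9 of them had an unadjusted p under 0.05, and at most 2 were called lower. Calls over the whole table dropped from 6354 to between 1223 and 2450 in the same fits, which tested 18584 to 18748 genes. Without KO replicate 2 the counts were 3 higher and 3 lower of 39 members, beside 1734 and 2659 of the 18646 genes tested. Without moderation of the variance SLC2A3, HK2, ALDOC, ENO2, PDK1, BNIP3L and PDK3 lost their calls. LDHA kept its call in 4 of the 6 fits with a library left out, the most of any member.

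**Figure D1:**
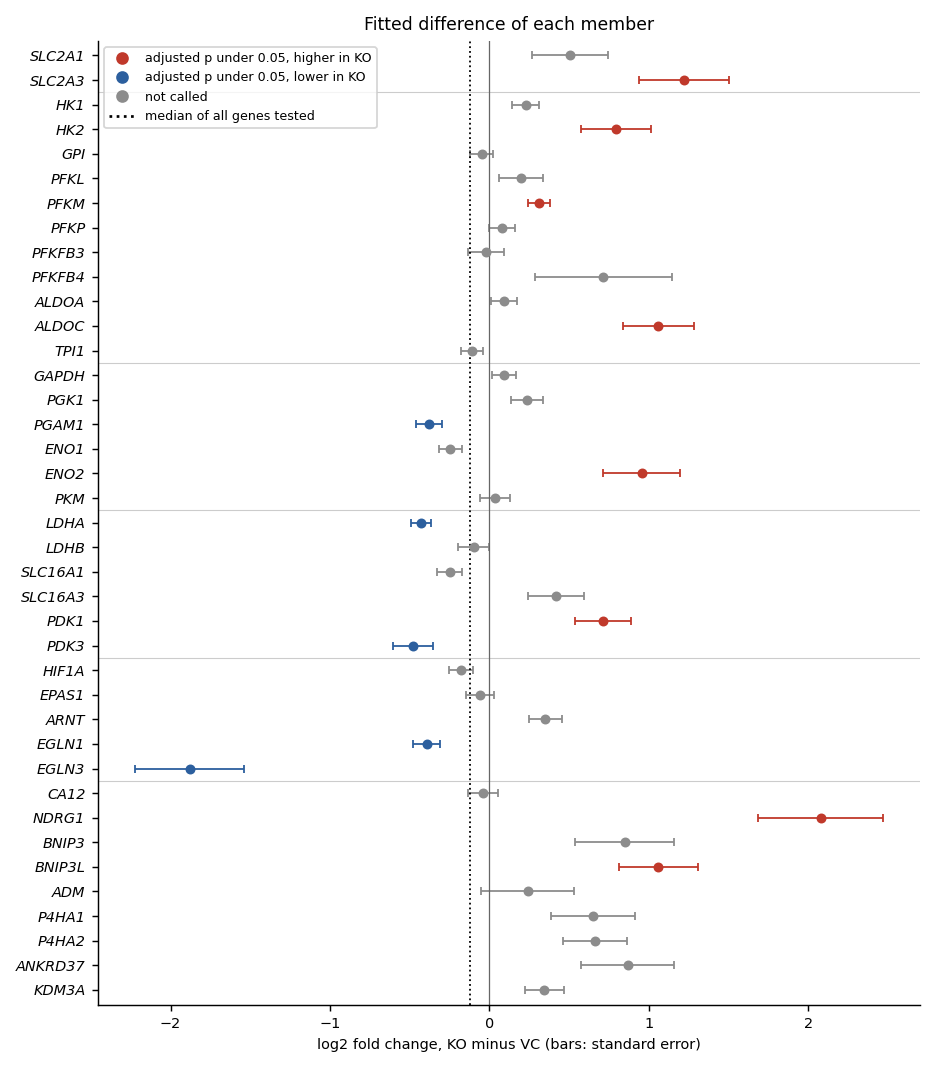
Log2 fold change (KO minus VC, horizontal axis, log2 units) of the 39 members tested, with bars for the standard error of limma's fit and lines between the functional groups. NDRG1 lies farthest to the right at 2.08 and EGLN3 farthest to the left at -1.88, and the dotted line marks the median of all genes tested at -0.13.

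Promoter windows of RefSeq (GRCh38.p14, 250 bases before to 50 bases after a start) were found by symbol for 36 of the 40 members. NDRG1, SLC16A1, SLC2A3 and BNIP3L had no entry. The letters ACGTG, on either strand, stood in 24 of the members' 64 windows (37.5%) and in 21.4% of all windows, or 24.5% of the windows of genes tested here. By gene, that was 20 of 36 members against 30.7% of the genes tested with a window. The letters GCGTG, on either strand, stood in 42.2% of the members' windows and 36.5% of all windows. Windows of genes tested held GCGTG more often, in 46.0%. The palindrome CACGTG, which contains ACGTG, is also the E-box read by MYC and other factors. It stood in 12.5% of the members' windows, 7.26% of all windows and 8.94% of the windows of genes tested. Stretches with the letters are shown for called members, and for BNIP3 and ANKRD37 as textbook HIF targets, because genes that rose and genes that fell both hold them. Capitals mark ACGTG or its reverse complement CACGT, and sequences are written 5′ to 3′ on the strand of the gene.
HK2, chr2:74834951-74835050, plus strand: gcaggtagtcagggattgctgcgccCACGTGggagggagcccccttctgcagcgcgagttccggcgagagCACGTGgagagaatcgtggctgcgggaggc
PFKM, chr12:48105346-48105375, plus strand: tagatccagagatCACGTtagggtacacca
ALDOC, chr17:28577116-28577145, minus strand: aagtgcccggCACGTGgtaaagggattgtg
ENO2, chr12:6914449-6914478, plus strand: cacccgcgctcgtACGTGcgcctccgccgg
PDK1, chr2:172556060-172556089, plus strand: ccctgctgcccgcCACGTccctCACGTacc
LDHA, chr11:18394328-18394387, plus strand: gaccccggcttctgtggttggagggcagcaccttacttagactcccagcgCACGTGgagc
PDK3, chrX:24465212-24465241, plus strand: tcgcgcgccgcgtACGTGcagcaaccgact
EGLN1, chr1:231422288-231422317, minus strand: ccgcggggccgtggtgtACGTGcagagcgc
BNIP3, chr10:131982014-131982113, minus strand: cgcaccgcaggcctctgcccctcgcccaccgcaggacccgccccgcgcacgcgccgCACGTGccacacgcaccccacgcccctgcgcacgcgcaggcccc
ANKRD37, chr4:185396676-185396705, plus strand: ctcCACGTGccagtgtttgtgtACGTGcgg
A match is a description of letters in a window and not a bound site. Among members with a window, 5 of 5 called higher and 3 of 5 called lower held ACGTG in at least 1 window. So did 11 of 25 members not called (44%) and 30.7% of the genes tested with a window. A gene with more windows has more chances to hold the letters, and PFKM alone has 7 windows, some of which overlap. Counted by window, ACGTG stood in 7 of 13 windows of members called higher and in 3 of 6 of members called lower. It stood in 13 of 44 windows of members not called and in 24.5% of the windows of genes tested. PGAM1 and EGLN3 were the called members without it in these windows. Of the HIF target genes with a window, BNIP3, ANKRD37, CA9 and P4HA1 held it, whereas ADM, CA12, KDM3A and P4HA2 did not.

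Glucose enters through facilitative transporters. SLC2A3 (GLUT3), a high-affinity transporter, had log2 signals of 3.22, 3.21 and 3.26 in VC and 3.82, 4.80 and 4.73 in KO. Every KO library lay above every VC library, and the difference of the means was 1.22 (2.33-fold, standard error 0.28, adjusted p = 0.0293). SLC2A1 (GLUT1), the transporter of most dividing cells, had 5.53, 5.37 and 5.52 in VC and 5.46, 6.31 and 6.17 in KO. KO replicates 2 and 3 were high and KO replicate 1 lay inside the VC range, so the log2 fold change of 0.51 did not pass the test (adjusted p = 0.154). In RNA from whole cultures, a change in the number of cells that express a gene and a change in RNA per cell cannot be told apart.

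Hexokinases trap glucose in the cell. HK2, the inducible hexokinase of many tumors, had 3.99, 3.93 and 4.03 in VC and 4.29, 5.06 and 4.97 in KO, without overlap. Its log2 fold change was 0.79 (1.73-fold, standard error 0.22, adjusted p = 0.0446). The housekeeping hexokinase HK1 moved less, from 5.41 ± 0.050 to 5.63 ± 0.11 (SD, n = 3), and was not called (log2 fold change 0.23, adjusted p = 0.093). GPI, which turns glucose 6-phosphate into fructose 6-phosphate, differed by -0.048 on the log2 scale (adjusted p = 0.624), whose sign turned with median-centred libraries.

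Phosphofructokinase commits sugar to glycolysis, and 1 of its 3 subunits was called. PFKM, the muscle-type subunit, had 4.10, 4.0 and 4.03 in VC and 4.35, 4.39 and 4.32 in KO. The groups did not overlap, the KO libraries were no more spread than the VC libraries, and the log2 fold change of 0.31 was called (1.24-fold, standard error 0.067, adjusted p = 0.026). PFKL (0.20, adjusted p = 0.303) and PFKP (0.080, adjusted p = 0.472) were not called, and no difference between the changes of PFKM and the other subunits was tested. The bifunctional enzymes PFKFB3 and PFKFB4 set the level of fructose 2,6-bisphosphate, the main activator of phosphofructokinase. PFKFB4 had 0.97, 0.48 and 0.95 in VC and 0.58, 1.92 and 2.05 in KO, so that KO replicates 2 and 3 stood above all VC libraries and KO replicate 1 among them (log2 fold change 0.71, adjusted p = 0.245). PFKFB3 had a difference of -0.02 (adjusted p = 0.904), whose sign turned with median-centred libraries, with a second quantile normalization, with library weights and without KO replicate 1.

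Aldolase splits the 6-carbon sugar. ALDOC, the brain-type aldolase, had 1.49, 1.31 and 1.48 in VC and 2.04, 2.87 and 2.55 in KO. Each KO library exceeded each VC library, and the log2 fold change was 1.06 (2.08-fold, standard error 0.22, adjusted p = 0.0241). ALDOA, the muscle-type and main isozyme of most cells, stayed between 8.01 and 8.25 in all 6 libraries (log2 fold change 0.093, adjusted p = 0.414). TPI1, which interconverts the triose phosphates, had a difference of -0.11 without overlap (adjusted p = 0.272).

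In the lower part of glycolysis, 1 member was called in each direction. GAPDH, the enzyme used as the qPCR reference in this study, had 11.25, 11.24 and 11.40 in VC and 11.40, 11.38 and 11.38 in KO. These values overlapped, and the log2 fold change was 0.09 (standard error 0.075, adjusted p = 0.385). Quantile normalization gives every library the same set of values, so a gene at the highest ranks can move only by the steps between those ranks. The table also lists 64 pseudogenes of GAPDH, 40 of BNIP3, 13 of PGAM1 and 6 of LDHA, of which 1 (PGAM1P5, up to -5.27) had a value, and 4 of TPI1, of which 2 had a value (TPI1P3 up to 0.97), so reads shared with such copies leave these genes uncertain. PGK1, the first ATP-forming step, had a log2 fold change of 0.24 without overlap and was not called (adjusted p = 0.127).

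PGAM1, phosphoglycerate mutase, had 8.67, 8.70 and 8.70 in VC and 8.43, 8.22 and 8.28 in KO. All KO libraries were lower, and the log2 fold change of -0.38 was called (0.768-fold, standard error 0.081, adjusted p = 0.0248). ENO1, the ubiquitous enolase, had 10.17, 10.07 and 10.19 in VC and 9.94, 9.85 and 9.91 in KO. Its log2 fold change of -0.25 just missed the threshold (standard error 0.072, adjusted p = 0.0503), with no overlap between the groups. ENO2, the neuronal enolase, went the other way, with 2.97, 2.79 and 3.07 in VC and 3.40, 4.25 and 4.04 in KO. The log2 fold change of ENO2 was 0.95 (1.94-fold, standard error 0.24, adjusted p = 0.0359). PKM, pyruvate kinase, differed by 0.035 on the log2 scale (adjusted p = 0.799), whose sign turned without KO replicate 1 and with library weights.

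Lactate dehydrogenase A converts pyruvate to lactate. LDHA had 8.81, 8.82 and 8.82 in VC and 8.40, 8.34 and 8.42 in KO. The VC libraries had an SD of 0.0034, every KO library was lower, and the log2 fold change of -0.43 had the lowest adjusted p of all members (0.744-fold, standard error 0.063, adjusted p = 0.0128). LDHB, which favors the reverse reaction, had -0.099 (adjusted p = 0.45). The lactate transporters SLC16A1 (MCT1) and SLC16A3 (MCT4, the hypoxia-inducible exporter) had log2 fold changes of -0.25 (adjusted p = 0.0568, no overlap) and 0.42 (adjusted p = 0.12, overlap between KO replicate 1 and VC), and neither was called.

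Pyruvate dehydrogenase kinases keep pyruvate out of the mitochondrial citric acid cycle. PDK1, a textbook HIF1A target, had 0.74, 0.62 and 0.63 in VC and 1.01, 1.64 and 1.48 in KO. The groups were separate, and the log2 fold change was 0.71 (1.64-fold, standard error 0.18, adjusted p = 0.0347). PDK3, encoded on the X chromosome, had 0.54, 0.56 and 0.48 in VC and 0.26, -0.19 and 0.07 in KO. PDK3 was called lower, with a log2 fold change of -0.48 (0.717-fold, standard error 0.13, adjusted p = 0.0401). With 1 added to the linear signal the difference was 0.48 for PDK1 and -0.26 for PDK3. Other members with low signals shrank in that setting too, to 0.84 for ALDOC, 0.52 for PFKFB4, 0.49 for P4HA2 and 0.58 for ANKRD37. The promoter stretches above hold ACGTG or CACGT in both kinases.

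**Figure D2:**
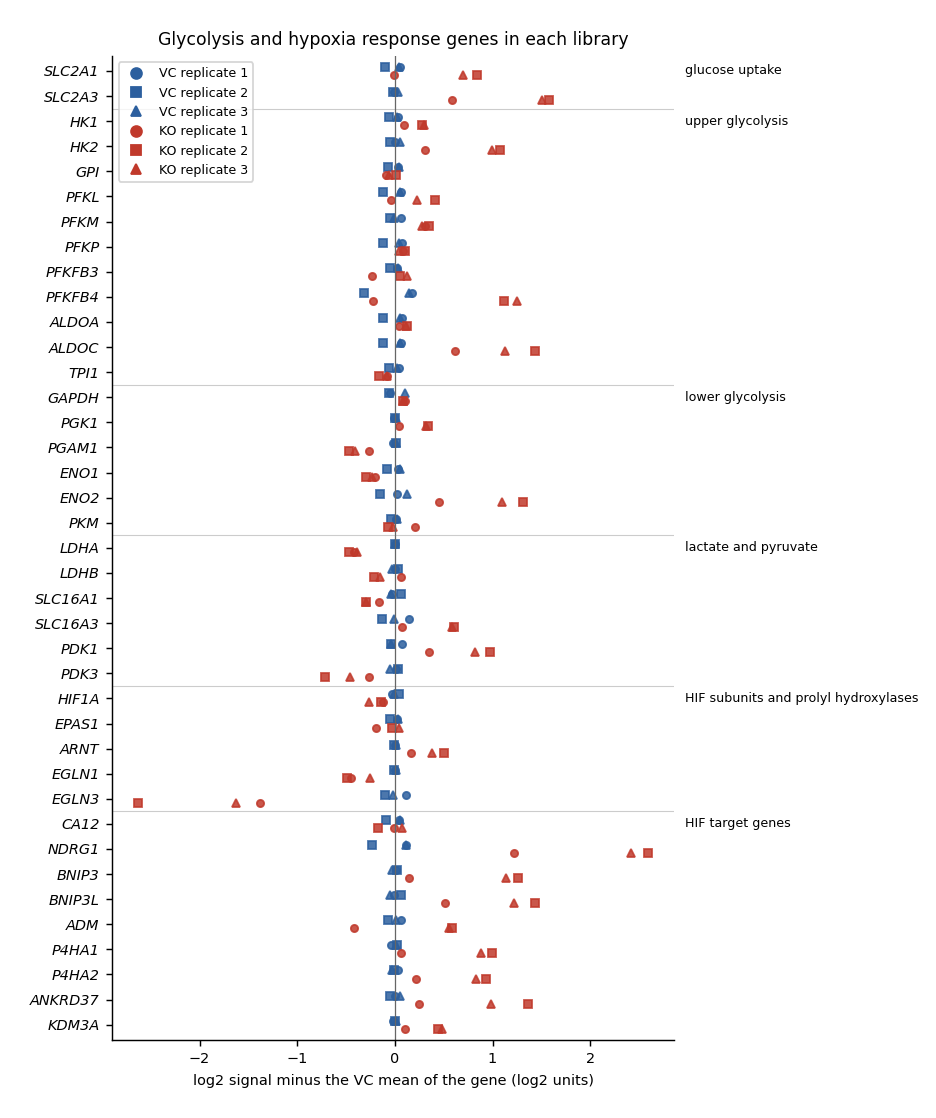
Log2 signal of each library minus the VC mean of the gene (horizontal axis, log2 units) for the 39 members tested, VC in blue and KO in red, with a symbol for each replicate number. VC libraries centre on 0 because their mean was subtracted. In 15 of the 16 members with all KO values above VC, KO replicate 1 lies nearest to VC.

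None of the 3 HIF subunits was called in the fit of all 6 libraries, but of 15 alternatives ARNT passed the threshold in 7 and HIF1A in 3. HIF1A had 5.61, 5.68 and 5.62 in VC and 5.51, 5.49 and 5.37 in KO, a log2 fold change of -0.18 that was not called (standard error 0.073, adjusted p = 0.111), although every KO library was lower. EPAS1 (HIF-2 alpha) had -0.061 (adjusted p = 0.613), and its sign turned with median-centred libraries, with library weights and without KO replicate 1. ARNT, the partner of both, had 3.55, 3.54 and 3.56 in VC and 3.71, 4.05 and 3.94 in KO (a log2 difference of 0.35, standard error 0.10, adjusted p = 0.0535). All KO libraries of ARNT lay above VC.

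EGLN1 and EGLN3 fell, whereas EGLN2, a further prolyl hydroxylase from the list of other HIF regulators that was named after its values were seen, overlapped between the groups (-0.057, adjusted p = 0.713). EGLN1 (PHD2), the main oxygen sensor of most cells, had 3.17, 3.16 and 3.17 in VC and 2.72, 2.68 and 2.91 in KO. That was a log2 fold change of -0.40 (0.76-fold, standard error 0.086, adjusted p = 0.0264), whose call was lost with median-centred libraries (adjusted p = 0.0583). EGLN3 (PHD3), itself known as a strongly HIF-induced gene, had 0.60, 0.39 and 0.47 in VC and -0.89, -2.14 and -1.14 in KO. The lowest VC library stood above the highest KO library by more than the range within VC, and the log2 fold change of -1.88 was the largest decrease among the members (0.272-fold, standard error 0.34, adjusted p = 0.0177). At these low signals the EGLN3 difference shrank to -0.78 with 1 added to the linear signal (adjusted p = 0.00535). HIF1A and EGLN3 lie on chromosome 14, where 335 genes in the upper 50% of mean signal centred on -0.35 (median log2 fold change), beside -0.079 for genes elsewhere. EGLN3 itself, at percentile 38.8 of mean signal, is not among the 335. PCK2, a gene of a further list that rose by 3.12, also lies on chromosome 14. The part of the chromosome's shift in the values of HIF1A and EGLN3 was not tested.

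Of the 10 HIF target genes 9 were tested, and 2 of these were called higher (22.2%, against 13.1% of all genes). In 7 of the 9 all KO libraries lay above all VC libraries (77.8%, against 22.6% of genes with 6 values), and the median log2 fold change was 0.66. NDRG1, a stress- and hypoxia-induced gene linked to growth arrest and metastasis suppression, had 2.56, 2.21 and 2.56 in VC and 3.66, 5.04 and 4.86 in KO. This was the largest rise among the members, 2.08 on the log2 scale (4.22-fold, standard error 0.39, adjusted p = 0.0191). BNIP3L (NIX), a receptor for the removal of mitochondria, had 3.87, 3.95 and 3.83 in VC and 4.40, 5.32 and 5.10 in KO (a log2 difference of 1.06, 2.08-fold, standard error 0.25, adjusted p = 0.0305). NDRG1 and BNIP3L both lie on chromosome 8, whose 322 genes in the upper 50% of mean signal centred on -0.27, beside -0.083 for genes elsewhere, so both went against the median of their chromosome.

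The other target genes without overlap between the groups did not pass the test. BNIP3, the relative of BNIP3L, had 5.41, 5.41 and 5.37 in VC and 5.54, 6.65 and 6.53 in KO, with KO replicate 1 just above VC (log2 fold change 0.85, standard error 0.31, adjusted p = 0.0867). ANKRD37, a small ankyrin protein induced by HIF1A, had 0.48, 0.43 and 0.53 in VC and 0.72, 1.85 and 1.47 in KO (a log2 difference of 0.87, adjusted p = 0.0711). P4HA1 and P4HA2, the catalytic subunits of collagen prolyl 4-hydroxylase, had differences of 0.65 (adjusted p = 0.107) and 0.66 (adjusted p = 0.0559). KDM3A, a histone H3 lysine 9 demethylase, had 0.34 (adjusted p = 0.0802). In each of these members KO replicate 1 was the KO library nearest to VC.

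Among the remaining target genes, ADM and CA12 had overlapping groups and CA9 could not be tested. ADM, the vasodilator peptide adrenomedullin, had 4.12, 3.99 and 4.08 in VC and 3.65, 4.65 and 4.61 in KO, so KO replicate 1 lay under VC and the other KO libraries above it (log2 fold change 0.24, adjusted p = 0.551). Without KO replicate 1, ADM was called (0.57, adjusted p = 0.00799). CA12, a membrane carbonic anhydrase, had -0.039 (adjusted p = 0.774), and its sign turned with median-centred libraries, with a second quantile normalization, with library weights and without KO replicate 2. CA9, the carbonic anhydrase used as a hypoxia marker in tumors, had values in VC replicates 1 and 3 only (-5.01 and -5.66) and was not tested.

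KO replicate 1 differed from the other KO libraries in size. Of the 16 members with all KO libraries above all VC libraries, KO replicate 1 was nearest to the VC mean in 15 (93.8%), against 59.1% of the 3996 such genes in the whole table. Of the 9 members with all KO libraries under VC it was nearest in 6 (66.7%, against 79.2% of 6504 genes). NDRG1 was 2.33-fold above the VC mean in KO replicate 1 and 5.69-fold in the mean of KO replicates 2 and 3. For BNIP3 the values were 1.11-fold and 2.30-fold, for P4HA1 1.05-fold and 1.92-fold, for SLC2A1 0.99-fold and 1.70-fold and for PFKFB4 0.858-fold and 2.27-fold. The decrease of LDHA was nearly the same in KO replicate 1 (0.749-fold) and in KO replicates 2 and 3 (0.741-fold), as was the rise of PFKM (1.24-fold in each) and the decrease of EGLN1 (0.735-fold and 0.774-fold). Neither the labels nor the methods give a batch, a passage or a clone that sets KO replicate 1 apart.

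**Figure D3:**
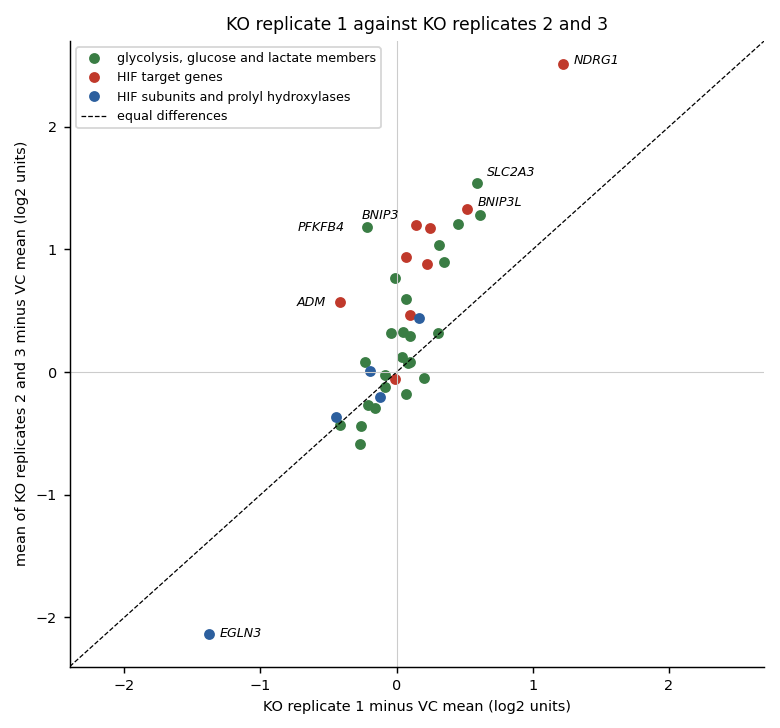
Difference from the VC mean in KO replicate 1 (horizontal axis) and in the mean of KO replicates 2 and 3 (vertical axis), both in log2 units, for the 39 members tested, colored by functional group. Most HIF target genes lie above the line of equal differences, with NDRG1 at 1.22 and 2.51, and EGLN3 lies at -1.38 and -2.13.

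Ratios between members that share a step were compared within each library, which cancels gene length and any scaling shared by both genes. Of 14 pairs, 13 could be formed, and in 9 the KO ratios lay wholly on one side of the VC ratios. Single genes with 6 values had groups without overlap in 59.3%. No such share was computed for other gene pairs, so whether the count of 9 is particular to these pairs was not tested. With 3 libraries against 3 the exact permutation test cannot give a two-sided p under 0.1, and over the 13 pairs the smallest adjusted p was 0.144, so no pair could pass. The ratio of ENO2 to ENO1 was -7.21, -7.28 and -7.12 in VC and -6.54, -5.60 and -5.87 in KO on the log2 scale, a mean change of 1.20 (2.30-fold). That of ALDOC to ALDOA changed by 0.97, and its VC ratios had an SD of 0.0046. SLC2A3 over SLC2A1 changed by 0.71 and HK2 over HK1 by 0.57. SLC16A3 over SLC16A1 changed by 0.67 and BNIP3L over BNIP3 by 0.21. Ratios were lower in KO for EGLN3 over EGLN1 (-1.49), PDK3 over PDK1 (-1.19) and LDHA over LDHB (-0.33). The KO and VC ratios overlapped for PFKP over PFKL, PFKFB4 over PFKFB3, EPAS1 over HIF1A and P4HA2 over P4HA1. The 9 pairs that did not overlap had an unadjusted p of 0.1 each.

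**Figure D4:**
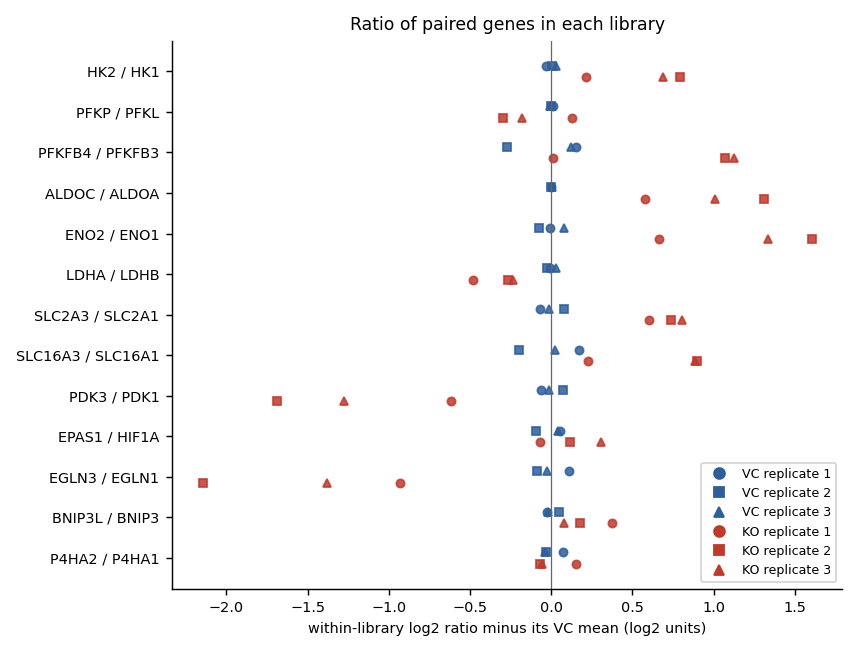
Within-library log2 ratio of 13 gene pairs minus its VC mean (horizontal axis, log2 units), VC in blue and KO in red, with a symbol for each replicate number. Red points lie to the right of all blue points for 6 pairs and to the left for 3, with the widest gap for EGLN3 over EGLN1.

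Other genes of the pathway were taken from 6 lists. The lists were chosen with earlier results of these data known, so their shares of calls are a description and not a test. Among 36 further genes known to be induced by hypoxia, all were tested, 15 were called higher (41.7%, against 13.1% of all genes tested) and 5 lower (13.9%, against 19.8%), and their median log2 fold change was 0.37, beside -0.13 for all genes tested. The same shares of all genes stand beside each list that follows. DDIT4, an inhibitor of mTOR complex 1 that also answers to other stresses, had 4.08, 3.79 and 4.06 in VC and 7.0, 7.91 and 7.29 in KO (a log2 difference of 3.42, standard error 0.25, adjusted p = 0.00571). STC1, the secreted glycoprotein stanniocalcin 1, had 2.89, 2.86 and 2.91 in VC and 5.72, 6.33 and 5.74 in KO (a log2 difference of 3.05, adjusted p = 0.00478). In both genes the gap between the groups was wider than the range within either. JMJD6, a nuclear hydroxylase, fell by 0.96 (adjusted p = 0.0472), and NT5E, the ecto-5'-nucleotidase CD73, fell by 0.66 (adjusted p = 0.00874).

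Enzymes beside the main pathway were counted in the same way. Of 20 further glycolytic and gluconeogenic enzymes, 18 had a value and 11 were tested, with 3 called higher (27.3%, against 13.1%), 1 lower (9.09%, against 19.8%) and a median of -0.12. PCK2, the mitochondrial phosphoenolpyruvate carboxykinase, had 2.48, 2.26 and 2.34 in VC and 4.90, 6.05 and 5.47 in KO (a log2 difference of 3.12, 8.67-fold, standard error 0.30, adjusted p = 0.0079). LDHD, the mitochondrial D-lactate dehydrogenase, rose by 1.93 (adjusted p = 0.0333) at low signals of -6.98 to -3.94, and TIGAR, a fructose 2,6-bisphosphatase, fell by 0.50 (adjusted p = 0.0496). Of 20 pentose phosphate and glycogen genes, all tested, 3 were called higher (15.0%, against 13.1%) and 1 lower (5.0%, against 19.8%), with a median of 0.026. PPP1R3B, which brings protein phosphatase 1 to glycogen, rose by 1.05 (adjusted p = 0.0116) and H6PD, the hexose 6-phosphate dehydrogenase of the endoplasmic reticulum, by 0.88 (adjusted p = 0.0301).

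For the entry and oxidation of pyruvate, 1 of 12 genes was called higher (8.33%, against 13.1%) and 4 lower (33.3%, against 19.8%), with a median of -0.13, the same as that of all genes tested. PDP1, the phosphatase that reactivates pyruvate dehydrogenase, fell by 0.62 (standard error 0.068, adjusted p = 0.00882). PDP1 lies on chromosome 8, whose median was lower as given above, together with ELOC and with STC1 and PPP1R3B, which rose. MPC1, a subunit of the mitochondrial pyruvate carrier, fell by 0.45 (adjusted p = 0.0348), and PDHB, the E1 beta subunit of pyruvate dehydrogenase, was higher by 0.24 (adjusted p = 0.0495). None of the 10 tested genes among 15 further glucose and lactate transporters was called by limma, with 1 at an unadjusted p under 0.05 (lower in KO) and a median of -0.12. Of 12 further HIF regulators, 11 were tested, 1 was called higher (9.09%, against 13.1%) and 2 lower (18.2%, against 19.8%), shares near those of all genes, with a median of -0.057. CITED2, which competes with HIFs for the coactivators CBP and p300, rose by 0.63 (adjusted p = 0.0259). The coactivator CREBBP fell by 0.54 (adjusted p = 0.0338) and ELOC (elongin C of the VHL ubiquitin ligase) fell by 0.48 (adjusted p = 0.0147).

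**Figure D5:**
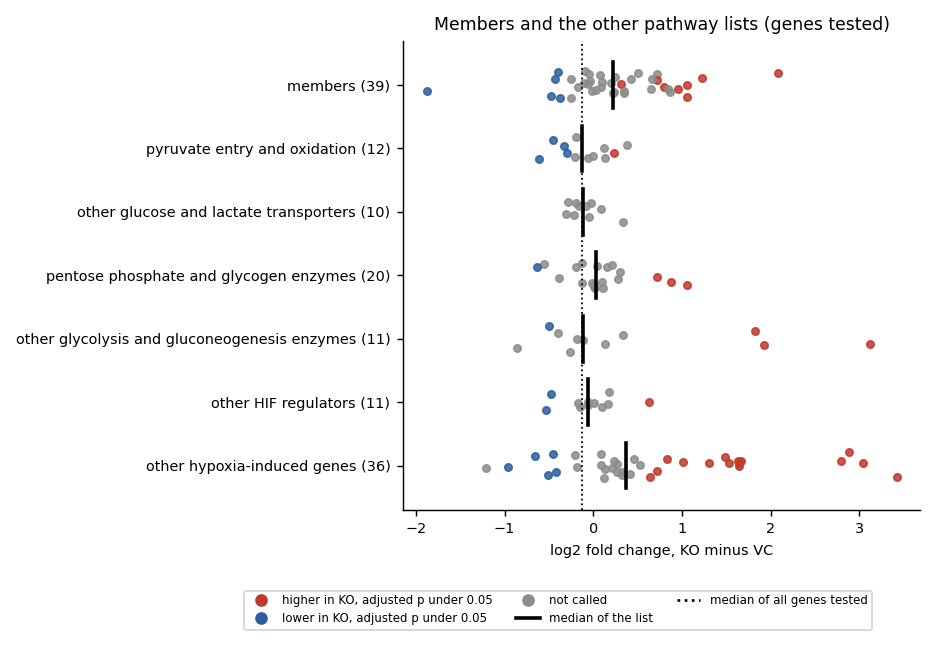
Log2 fold change (KO minus VC, horizontal axis) of every tested gene of the members and of 6 further lists, with the number of genes tested in brackets, the median of each list as a black bar and the median of all genes tested as a dotted line. The list of other hypoxia-induced genes reaches farthest to the right, up to 3.42, and has a median of 0.37 beside 0.23 for the members.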

How the data were processed

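RNA of 3 VC and 3 KO libraries was sequenced by the authors, and the 6 columns were matched to samples through their labels. The submitters' processing notes name CASAVA, STAR, Partek and the build GRCh38.p13, and the methods name CLC Genomics software. The deposited values are log2 signals, quantile-normalized between libraries by the authors. The linear unit, annotation, versions and handling of reads shared with pseudogenes are not given in the sources used here. An empty cell was taken as no value, and 29611 of 54308 genes had none in any library. Levels of members were not compared between genes, since the unit may not be per length, and sums over markers serve only to compare libraries.

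Signals were fitted without further scaling in R 4.3.3 with limma 3.58.1 (empirical Bayes moderation, no trend), for the 19306 genes that had 2 or more values per group. Two-sided p-values were adjusted over all of them by the Benjamini-Hochberg method. The fit was tested on simulated data. Alternatives changed filter, scaling, moderation or weights, added a replicate block, or left out a library. Ratios were compared by exact permutation with scipy 1.17.1. A RefSeq table gave chromosomes by symbol, and printed stretches longer than 30 bases overlap no exon of GENCODE release 29. Named genes are all 40 members and, from each further list, at most 2 called genes in each direction with the largest change and no overlap between groups. Members and lists were chosen with earlier results of these data known. A called gene of the pentose phosphate and glycogen list is not reported here by name.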

Additional observations from a re-analysis of the deposited data

How the results depend on the processing

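Ratios whose groups did not overlap numbered 9 with 1 added to the linear signal and with any library left out except KO replicate 1, without which there were 13. These counts were not made for other gene pairs. Of 582 member values under alternatives, 425 kept their sign and stayed on their side of the threshold, 76 fell short of it and 67 newly passed it. The remaining 14 changed sign and were called in neither fit. Calls among all genes tested numbered 6354, with 13936 under library weights, 1840 at 2-fold and 1223 to 8669 with a library left out. Members called higher numbered 8 of 39, beside 2526 of the 19306 genes tested. They numbered 15 of 36 in the upper 50% of mean signal, beside 2263 of 9653 genes. Of 39 members and 19306 genes tested, trend and robust moderation gave 15 members (2999 genes), no moderation 2 (1990), library weights 21 (4852) and the 2-fold threshold 4 (792). With a library left out there were 0 to 20 members, beside 654 to 2940 genes of 18458 to 18748 tested. Members called lower numbered 5 of 39, beside 3828 of the 19306 genes tested. Out of the same numbers tested, there were 8 with 1 added to the linear signal (4785 genes), 11 with library weights (9084) and 1 at 2-fold (1048). With a library left out there were 0 to 7 members, beside 569 to 5729 genes of 18458 to 18748 tested. The cause was not tested.

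Median-centred libraries turned GPI to 0.035, PFKFB3 to 0.064, EPAS1 to 0.023 and CA12 to 0.045. A second quantile normalization turned PFKFB3 to 0.014 and CA12 to 0.041. Library weights turned PFKFB3 to 0.11, PKM to -0.034, EPAS1 to 0.022 and CA12 to 0.037. With a library left out, log2 fold changes ran from -0.091 to 0.086 for PFKFB3, -0.048 to 0.090 for PKM, -0.11 to 0.0049 for EPAS1 and -0.093 to 0.030 for CA12. The P4HA2 over P4HA1 difference ran from -0.062 to 0.050 and was -0.12 with 1 added to the linear signal.

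A replicate block gave 1533 of the 19306 genes tested, 0 members higher (12 at an unadjusted limma p under 0.05) and 1 lower. Deviations of libraries with the same number correlated at 0.023, 0.0051 and -0.0074, and VC replicate 2 correlated best with KO replicate 3 (0.031), so the numbers were not taken as pairs. Depth is unknown, so the counting error of low signals such as those of CA9 cannot be given.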
